A study of Mus musculus with 12 samples.

Results

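On an array slide that carried neural progenitor cells overexpressing Gatad2b, Etv6 or Nfxl1, 112 genes read lower than on the slide that carried the EGFP, mock and Hmga2 cultures, and 2 read higher. The 114 genes, of 27582 on the array, were chosen by their levels on these 6 arrays: they are those for which all 3 arrays of one slide lay beyond all 3 arrays of the other by at least 1 log2, which is a 2-fold difference. The level of a gene is the log2 of its spot signal relative to the array's 75th percentile, so 0 is that percentile. Because this contrast chose the genes, its values are a description and carry no test. The Esx1 array, from the slide of Gatad2b, and the Pax6 array, from the slide of EGFP, were not used to choose them.

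The cells were neural progenitors of the mouse strain 129/Ola. Retroviruses carried the open reading frame of EGFP or of 1 of 10 transcription factors in pMXs-IRESNeo, at a titre that gave expression in about 95% of cells. G418, which kills cells that lack the resistance gene of the vector, followed at 24 h, and the cells were taken at 72 h. The EGFP, Hmga2, Pax6, Gatad2b, Etv6, Nfxl1 and Esx1 cultures therefore shared virus and G418 and differed in the inserted reading frame, while the virus and drug given to the mock culture are not stated in the sources used here. Each culture has 1 array, and the arrays were on 3 slides of 4. Slide 1 held mock, EGFP, Pax6 and Hmga2. Slide 2 held Gatad2b, Etv6, Esx1 and Nfxl1. Slide 3 held Pdx1, Sox11, Crebzf and Zfp451. The 3 arrays on either side of the contrast are different cultures and not replicates of a condition, and slide, culture, labelling and hybridisation batch, and factor cannot be told apart in it.

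Gatad2b is a subunit of the NuRD chromatin complex, Etv6 an ETS-family repressor, Nfxl1 a zinc finger protein and Hmga2 a chromatin protein of fetal stem cells. EGFP is a fluorescent protein used as a neutral insert. The genes given as markers of the contrast belong to unrelated processes. Spry4 is a feedback inhibitor of receptor tyrosine kinase signalling that ERK activity induces. Smg8 is a regulator of the kinase Smg1 in nonsense-mediated decay, the pathway that removes messages with premature stop codons. Cep20 is a centrosome and centriolar satellite protein, and Hacl1 is a peroxisomal lyase that shortens 2-hydroxy and phytanic acids during alpha oxidation. On an array of this kind each gene is read by 1 or a few short probes, so a value belongs to a probe's target and not to a whole transcript.

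The 12 arrays had a 75th percentile of signal between 823.5 and 1026 units, and 62.9% to 69.4% of spots were well above background. No spot was saturated. On the Gatad2b, Etv6 and Nfxl1 arrays this share was 62.9% to 64.8%, below the 66.4% to 69.4% of the EGFP, mock and Hmga2 arrays, while Esx1 and Pax6 stood at 69% and 69.3%. Of 10 spike-in probes, the 8 with a mean level above -6 differed between the slides by -0.13 to 0.06 log2. The dimmer ones, at mean levels of -6.79 and -7.63, differed by -0.27 and -0.52. Esx1 minus Pax6 ran from -0.59 to -0.11 over the 10 probes. Of 17 neural progenitor markers 13 were measured, and the progenitor genes Ptprz1 and Vim were at 8.25 or above and 6.38 or above on all 6 arrays of the contrast. Arrays of the same slide differed by at least 2-fold in 42 to 226 of the 16083 genes measured on every array, and arrays of different slides, within the 6, in 240 to 465. The Esx1 and Pax6 arrays stood apart from those 6 in 3071 to 4058 genes, but from each other in 749 and from the slide 3 arrays in 280 to 393. Levels on Esx1 and Pax6 were therefore set against each other and against slide 3. The probe of the inserted factor did not mark its own array: Etv6 read -0.34 on the Etv6 array and -0.25 to -0.10 on the other 5 arrays of the contrast, and Gatad2b read 0.84 on the Gatad2b array and 0.73 to 0.91 on the others. Whether these probes lie inside the inserted reading frames was not determined, so they check no label.

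Of the 112 lower genes, 81 were well above background on all 3 slide 1 arrays and are the ones described from here. They are 0.464% of the 17472 genes measured there. The remaining 31 were not well above background on all 3 and are not described further. Of the 2 higher genes, only the unannotated transcript ENSMUST00000059708 was measured on all 3 slide 2 arrays, which is 0.00605% of 16521 genes. It read -6.01, -4.16 and -5.71 on Gatad2b, Etv6 and Nfxl1 and was well above background on no other array. The other, Cd209d, was not well above background on any of the 12 arrays. Leaving out an array can only keep or add genes under this rule, and the 81 became 135 without Nfxl1 and 124 without mock. A normexp background correction with an offset of 50 lowered the 81 to 18.

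Slide 2 read 45 of the 81 well above background on all 3 of its arrays. Their median difference, slide 2 mean minus slide 1 mean, was -1.69 log2, from -2.65 to -1.11, where the median of all 17472 genes was -0.01. The signal of those genes was 2.16-fold to 6.27-fold lower, with a median of 3.24-fold. A further 29 were not well above background on any of the 3 slide 2 arrays. For these a fold is a bound, computed against the higher of the array's lowest signal well above background and the spot's own, and the bounds ran from at least 1.21-fold to at least 7.35-fold. The other 7 were measured on 1 or 2 arrays of slide 2. Fewer cells of a type and less RNA per cell cannot be told apart in such bulk values.

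Spry4 gave the brightest of the marker signals. Its level was -1.29 on EGFP, -1.10 on mock and -0.59 on Hmga2, and -3.52 on Gatad2b, -2.98 on Etv6 and -2.45 on Nfxl1. The rule requires groups that do not overlap, and their means were -0.99 ± 0.36 and -2.98 ± 0.54 (SD, n = 3 arrays each), a 3.97-fold lower signal on slide 2. On the arrays left out of the choice, Spry4 read -3.63 on Esx1 and -1.51 on Pax6, so slide 2 was again the low one. The 4 slide 3 arrays, at -1.91 to -1.39, lay with slide 1 and above all 4 arrays of slide 2. The probe reads chr18:38962470-38962529 on the minus strand (mm7).

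The second Spry4 probe, at chr18:38962445-38962458, a shorter mapped interval than that of the first, did not show the difference. It was also dimmer, with a slide 1 mean of -3.65 against -0.99. It was well above background on all 6 arrays and differed by -0.03 log2 between the slides and by 0.29 between Esx1 and Pax6, where the first probe gave -1.99 and -2.12. Its paralogues Spry1 and Spry2, inhibitors of the same signalling, differed by 0.07 and 0.16. Dusp6, a phosphatase that ERK induces and that inactivates it, differed by 0.16, and the ERK-induced factors Etv4 and Etv5 by 0.11 and 0.10. None of these genes met the rule. The transcriptional corepressor Nab2 came closest in that list, at -0.21, -0.21 and 0.33 on EGFP, mock and Hmga2 and -2.16, -1.40 and -1.03 on Gatad2b, Etv6 and Nfxl1, with 0.82 log2 between the nearest arrays. Esx1 minus Pax6 was -1.88 for Nab2.

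Smg8 read -3.72 on EGFP, -3.71 on mock and -3.03 on Hmga2. On slide 2 it read -6.71 on Gatad2b, -6.81 on Etv6 and -5.72 on Nfxl1, and 1 of these 3 spots was well above background. The difference of the means was -2.93 log2. Esx1 gave -6.24 and Pax6 -3.54, and slide 3 gave -4.36 to -3.69, so all 8 arrays outside slide 2 were at least 1.36 log2 above all 4 arrays on it. The probe lies at chr11:87147669-87147728 (minus strand, mm7). Smg1, the kinase that Smg8 regulates, and Smg9, the partner of Smg8 in that complex, differed by -0.08 and 0.12.

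Cep20 read -4.20, -4.47 and -3.70 on EGFP, mock and Hmga2 against -8.85, -8.11 and -6.39 on Gatad2b, Etv6 and Nfxl1, with 1 of the slide 2 spots well above background. Esx1, at -7.74, was not well above background either, and Pax6 was at -4.20. Slide 3 lay between -4.95 and -4.27, again with slide 1. The probe lies at chr16:13846109-13846168 (minus strand, mm7), and a second Cep20 probe was not well above background on any of the 6 arrays or on Esx1. That probe was measured on Pax6, at -3.18, and on Pdx1 and Zfp451 of slide 3, at -4.35 and -4.13, but not on Crebzf or Sox11. The satellite scaffold protein Pcm1 differed by -0.30 and the Cep20 paralogue Cep43 by 0.09.

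Hacl1 read -4.38, -4.62 and -4.51 on EGFP, mock and Hmga2 and was not well above background on Gatad2b, Etv6 or Nfxl1, an at least 3.99-fold lower signal. It was well above background on Esx1, at -5.65, but below Pax6 at -3.24 and below all slide 3 arrays, which read -3.83 to -3.53. The probe lies at chr14:29037494-29037553 (minus strand, mm7). Phyh, the enzyme of the preceding step of alpha oxidation, differed by -0.20.

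Background correction moved these differences. With the normexp correction, slide 2 remained below slide 1 by 1.52 log2 for Spry4, but the difference of Smg8 became -1.005, that of Cep20 -0.74 and that of Hacl1 -0.56. None of the 4 markers then met the rule. With all probes of a gene averaged, Spry4 gave -1.01 and Cep20 -1.72, and neither met it.

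**Figure D1:**
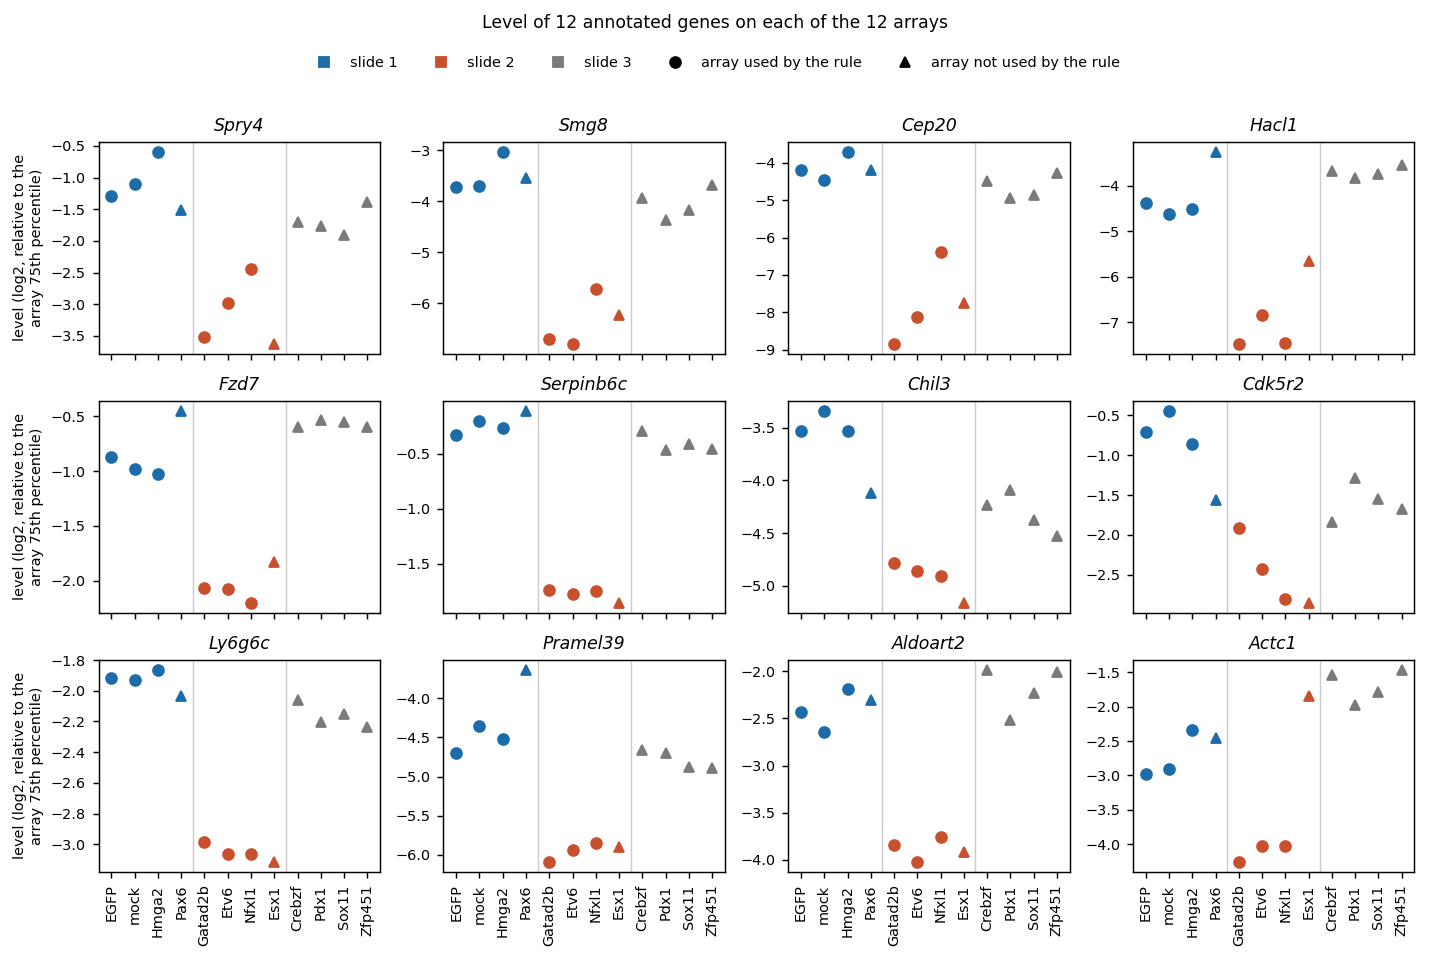
Level (log2 relative to the array's 75th percentile) of 12 annotated genes on each of the 12 arrays, blue for slide 1, orange for slide 2 and grey for slide 3, with circles for the 6 arrays that chose the genes and triangles for the others. In all but Actc1 the Esx1 triangle lies with the orange circles or below the grey and blue points, as for Spry4 at -3.63 against -1.51 on Pax6.

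The Esx1 and Pax6 arrays repeated the direction of most of the 81 genes. Esx1 lay at least 1 log2 below Pax6 for 70 of them, or 86.4%, where this held for 4.76% of all 17472 genes. It lay below by less for 7 and above for 4, and for none by 1 log2 or more, where 1.19% of all genes were at least 1 log2 higher on Esx1. The median of Esx1 minus Pax6 was -1.94 log2 over the 81 genes, from -5.38 to 0.67, and within 0.01 of 0 over all genes. Among the 45 genes with a signal above background on each of the 12 arrays the repeat held for 41, or 91.1%, against 3.72% of the 16083 such genes. Because Esx1 and Pax6 also carry different factors, with 1 array each, these counts have no replicate check.

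Slide 3 gave a reference outside both slides. Esx1 was at least 1 log2 below the slide 3 mean for 65 of the 81 genes, or 80.2%, against 1.73% of all genes. Pax6 was that far below it for 1 gene, against 0.584% of all genes, and that far above it for 5, or 6.17%, against 2.54% of all genes. The median of Esx1 minus the slide 3 mean was -1.67 log2 over the 81 genes and 0.03 over all, and the median of Pax6 minus that mean was 0.30 and 0.01. For 64 of the 81 genes, or 79%, all 4 slide 2 arrays lay below all 8 others, against 2.58% of all genes, and for 21 of them by at least 1 log2. The rule had already set Gatad2b, Etv6 and Nfxl1 below EGFP, mock and Hmga2 for the 81 genes. Part of the 79% was thus fixed in advance, and only the Esx1, Pax6 and slide 3 levels were free to differ. A gene with that separation of 1 log2 meets the rule by definition, so no other measured gene could have it. How far slide 3 lay above slide 2 varied among the 64, from close to slide 1, as for Serpinb6c, to between the slides, as for Wdr76 and Cdk5r2.

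**Figure D2:**
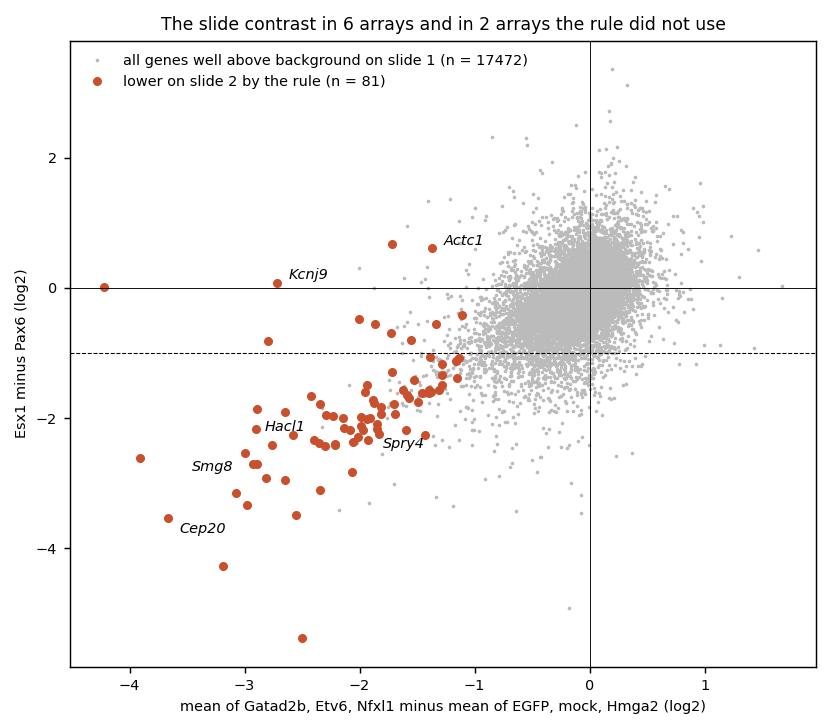
Difference between the slides in the 6 arrays that chose the genes (horizontal, log2) and Esx1 minus Pax6 on 2 arrays that did not (vertical, log2), with all 17472 measured genes in grey and the 81 lower genes in orange. Below the dashed line at -1 lie 70 of the 81, and Actc1 is 1 of 4 above 0.

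Over the 81 genes the range among EGFP, mock and Hmga2 had a median of 0.47 log2, and among the 4 slide 3 arrays of 0.49. For the 45 genes measured on slide 2 it was 0.38 among Gatad2b, Etv6 and Nfxl1. These ranges were wider than the 0.16 of all genes on slide 1. The order inside a slide was uneven: of these 45 genes Nfxl1 read highest of the 4 slide 2 arrays for 29 and Esx1 lowest for 27, while Gatad2b was lowest for 10, Etv6 for 5 and Nfxl1 for 3. On slide 1, Hmga2 was highest for 52 of the 81 and Pax6 lowest for 42. These orders were not counted over all genes, so whether they are particular to the members is not known. Esx1 and Pax6 also stood apart from the 6 arrays in 3071 to 4058 of the 16083 genes measured on every array. Nfxl1 and Hmga2 had the same place on their slides, the last of 4, and Esx1 and Pax6 shared the place before it.

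Beside Spry4, the annotated genes that were measured on all 12 arrays have unrelated functions. Fzd7 is a Wnt receptor and read -0.87, -0.98 and -1.03 on EGFP, mock and Hmga2 and -2.07, -2.08 and -2.21 on Gatad2b, Etv6 and Nfxl1. Its signal was 2.23-fold lower on slide 2, and Esx1 at -1.83 was again below Pax6 at -0.45. A second Fzd7 probe differed by -0.04. Cdk5r2, a neuronal activator of the kinase Cdk5, read -0.71, -0.44 and -0.85 against -1.91, -2.42 and -2.81, and Esx1 at -2.86 was below Pax6 at -1.56. For Cdk5r2 the slide 3 arrays, at -1.84 to -1.28, lay between the slides, and the highest slide 2 array was only 0.07 below the lowest of them.

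Serpinb6c, a serine protease inhibitor of the ovalbumin type, showed narrow groups. It read -0.33, -0.21 and -0.26 on slide 1 and -1.74, -1.78 and -1.75 on slide 2, means of -0.27 ± 0.06 and -1.76 ± 0.02 (SD, n = 3), 2.81-fold lower. Esx1 at -1.86 was slightly below the slide 2 values and Pax6 at -0.11 slightly above the slide 1 values, and slide 3 stayed at -0.47 to -0.30. RP23-3N21.1, a clone described as weakly similar to a serine proteinase inhibitor and 209 kb away on chromosome 13, differed by -1.83 log2, and Esx1 minus Pax6 was -2.25. Ly6g6c, a surface protein of the Ly6 family, was about as narrow, at -1.92, -1.93 and -1.86 against -2.98, -3.06 and -3.07, with Esx1 at -3.12 and Pax6 at -2.03.

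Chil3, a chitinase-like protein of macrophages, read -3.53, -3.33 and -3.53 against -4.78, -4.87 and -4.91, with Esx1 at -5.17 and Pax6 at -4.11. Pramel39, a member of the Prame-like family, read -4.70, -4.36 and -4.52 against -6.09, -5.94 and -5.85, with Esx1 at -5.90 and Pax6 at -3.63. Aldoart2, a retrogene of the glycolytic enzyme aldolase A known from testis, read -2.43, -2.65 and -2.19 against -3.85, -4.03 and -3.76. Its Esx1 level of -3.92 was 1.61 log2 below that of Pax6, and the lowest array outside slide 2 was 1.11 log2 above the highest on it. A second Aldoart2 probe, well above background on 1 of the 3 slide 2 arrays, differed by -0.58. At the brighter probe of each of these genes the 4 slide 2 arrays were the 4 lowest of the 12.

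Some annotated genes were lower in the 6 arrays but not by 1 log2 between Esx1 and Pax6. Actc1, cardiac actin, read -2.97, -2.90 and -2.34 on EGFP, mock and Hmga2 and -4.26, -4.03 and -4.02 on Gatad2b, Etv6 and Nfxl1. Its Esx1 level of -1.84 was above Pax6 at -2.45 and within slide 3 at -1.98 to -1.46. Wdr76, a WD40-repeat protein of DNA damage responses, had means of -2.80 ± 0.03 and -3.91 ± 0.05 (SD, n = 3) but Esx1 minus Pax6 of -0.41, and its second probe, which was not measured on all 6 arrays, gave -0.87. In Wdr76 the Pax6 level of -3.33 and the slide 3 levels of -3.55 to -3.19 lay between the groups.

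Kcnj9, a subunit of neuronal inward-rectifier potassium channels, was brightest on mock, at -3.40 beside -5.95 on EGFP and -5.32 on Hmga2. It was not well above background on Gatad2b, Etv6 or Nfxl1. Without mock it still met the rule, and its difference went from -2.72 to -1.97. Pdx1, on slide 3, gave -3.48, close to the mock level, beside -6.72 to -6.41 on its slide. Cldn11, the claudin of oligodendrocyte myelin, and Dgkeos were not well above background on any array outside EGFP, mock and Hmga2, so Esx1 and Pax6 give them no order. Casp14, a caspase of the epidermis, was -5.51, -5.63 and -5.38 on slide 1, not well above background on Gatad2b, Etv6 or Nfxl1, and -6.29 on Esx1 against -5.60 on Pax6. Of 12 oligodendrocyte markers 8 were measured, with a median difference of -0.20, and of 11 myeloid markers 4 were measured, with a median of -0.21. None met the rule, a count that says little beside the 0.464% of all genes.

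Most of the 81 genes are poorly annotated. Their description reads unknown for 28, or 34.6%, against 4.82% of all measured genes, and 15, or 18.5%, were named through a RefSeq accession, against 64.5%. A predicted transcript accounts for 14, or 17.3%, against 4.47%. The 73 with a position are spread over 19 chromosomes with at most 9 on 1, and 8 have no position, 9.88% against 0.715%. On the array they lie in rows 13 to 505 of 532 and columns 1 to 84 of 85, and the 34 rows that hold the most of them, rows 362 to 395, hold 18 of the 81, or 22.2%, against 6.38% of all measured genes. These 18 lie in columns 1 to 81. The window was chosen after the values were seen, and the part of array position in the result was not tested. They are also dim: their level over the 12 arrays had a median of -4.59 against -0.45 for all measured genes, with 58 of 81 in the dimmest of 3 equal bins and 4 in the brightest.

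Some bright or unannotated targets were chosen for mention after their values were seen. NAP026710-1, an unannotated target on chromosome 1, read 3.03, 3.02 and 3.1 on EGFP, mock and Hmga2 and 1.65, 1.60 and 1.69 on Gatad2b, Etv6 and Nfxl1, a 2.64-fold difference with SDs of 0.04 on each slide (n = 3). Esx1 was at 1.30 and Pax6 at 2.87, and slide 3 at 2.74 to 2.96. NAP062835-1 on chromosome 7 read -1.34, -1.39 and -1.37 against -3.72, -3.64 and -3.79, 5.10-fold lower, with -3.99 on Esx1 and -1.61 on Pax6. In both, the 12 arrays form a slide 2 band and a band of the other slides, with nothing between.

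A few unannotated transcripts also differed between Pax6 and the 6 arrays. ENSMUST00000084870, with the widest gap of the 81 at 2.50 log2, read -3.68, -3.24 and -3.95 on slide 1 and was not well above background on Gatad2b, Etv6 or Nfxl1, at least 7.35-fold lower. It read -2.65 on Esx1, above the slide 1 arrays of the contrast, and -0.04 on Pax6. Slide 3 read -0.66 to -0.37. Esx1 was thus 2.61 log2 below Pax6 and below slide 3, while both were above the 6 arrays. The clone 4930567H12Rik was also high on Pax6, at -1.79, and on slide 3, at -2.77 to -2.27, but its Esx1 level of -6.05 lay below the -5.57 to -4.80 of EGFP, mock and Hmga2.

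Targets described by their likeness to another gene were common among the members and are called copies here. Of the 81, 18, or 22.2%, are described as similar to, a homolog of or a pseudogene of another gene, against 4.14% of all measured genes. For 16 of them the gene that the description names was itself on the array and well above background on all 6 arrays of the contrast, a pairing made after the descriptions were seen. Of the copies, 12 were well above background on all 3 slide 2 arrays and differed by -2.65 to -1.16 log2 between the slides, with a median of -1.86. Another 3 were not well above background on any of those arrays, with bounds of at least 1.23-fold to at least 3.89-fold, and 1 was measured on some. The 16 genes they resemble differed by -0.09 to 0.15, with a median of 0.08. Slide 1 levels of these genes ran from -1.04 for Zfp386 to 7.92 for Rps2. Esx1 was at least 1 log2 below Pax6 for 15 of the 16 copies, and Esx1 minus Pax6 over the genes they resemble ran from -0.94 to 0.30, with a median within 0.01 of 0. The -0.94 was that of Ncl, nucleolin, whose copy ENSMUST00000094393 gave -2.94.

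Ribosomal examples show the pattern on bright spots. LOC664813, described as similar to the ribosomal protein S7, read 3.09, 3.03 and 3.21 on slide 1 and 1.76, 1.74 and 1.98 on slide 2, with Esx1 at 1.5 and Pax6 at 3.0. Rps7 itself differed by 0.04. LOC219180, similar to the ribosomal protein S2, read 2.78, 2.63 and 3.23 against 0.72, 0.92 and 1.45, with Esx1 at -0.27 and Pax6 at 1.89, and Rps2 differed by 0.09. LOC627004, similar to the ribosomal protein L23a, differed by -1.81 and Rpl23a by 0.09. The 18 ribosomal protein genes on the list differed by -0.06 to 0.15, with a median of 0.06.

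The same held for copies of other gene families. AK038173, a homolog of prothymosin alpha, an acidic nuclear protein, read 2.53, 2.47 and 2.69 against 0.55, 0.60 and 0.93, and Ptma differed by -0.05. LOC674254 was not well above background on slide 2, an at least 3.89-fold lower signal, where Hnrnpa3, an RNA-binding protein of nuclear ribonucleoprotein particles, differed by 0.08. LOC634881 differed by -1.95 and Hdac1, a histone deacetylase, by 0.11. Aldoart2 at -1.45 stood beside 0.08 for Aldoa. Whether a probe to a copy also reads its source gene was not tested, since the files hold no probe sequences.

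**Figure D3:**
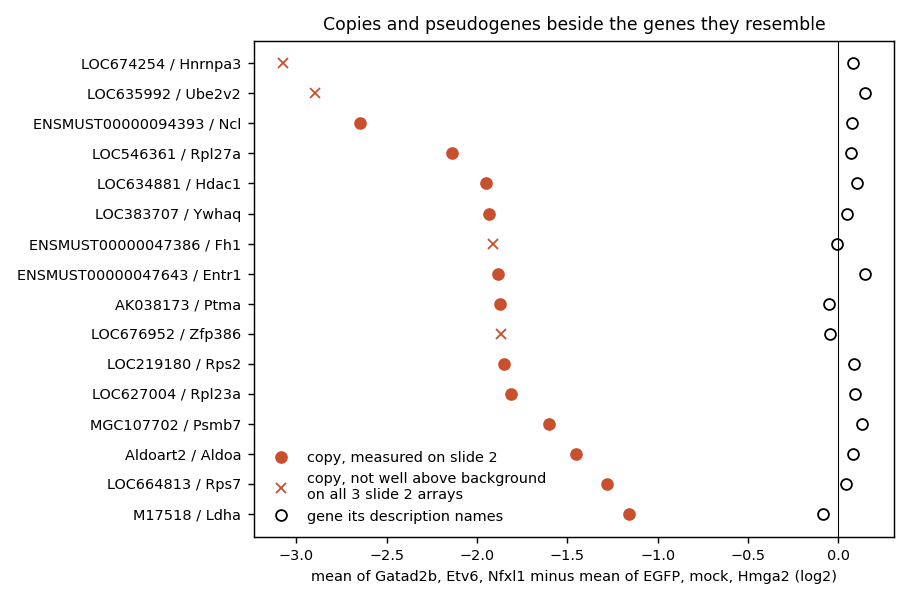
Difference between the slides (Gatad2b, Etv6 and Nfxl1 mean minus EGFP, mock and Hmga2 mean, log2) for 16 copies or pseudogenes that met the rule and for the genes their descriptions name (open). Filled points are the 12 copies measured on all 3 slide 2 arrays, between -2.65 and -1.16, crosses are copies whose slide 2 spots were not all well above background, and all 16 open points lie within 0.2 of 0.

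A gene is represented above by its brightest probe, and 71 of the 81, or 87.7%, have a symbol with 1 probe, against 56.9% of all measured genes. The rule was therefore also applied to each probe on its own, a choice made after seeing the data, and 109 probes for 109 genes met it, or 0.413% of 26361. Of these, 28 were not the brightest probe of their gene. For 29 of the 109, another probe of the same gene was well above background on all 6 arrays, which gave 50 other probes. Of the 29 probes, 15 were well above background on all 3 slide 2 arrays and differed by -2.19 to -1.16 log2, with a median of -1.71. Another 11 were not well above background on any of those arrays, with bounds of at least 1.15-fold to at least 4.54-fold, and 3 were measured on 1 or 2. The 50 other probes of the same genes differed by -0.64 to 0.30, with a median of 0.03, 48 of them within 0.5 of 0, and none met the rule. That filter leaves out probes that fall to background on slide 2. A probe of 4930555G01Rik met the rule at -2.06, with Esx1 minus Pax6 of -1.48, but was not among the 50. It was well above background on 2 of the slide 1 arrays and on no slide 2 array of the contrast. The 24 other probes of the genes behind the 15 differed by -0.51 to 0.27.

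The Esx1 and Pax6 arrays split the same way. Esx1 lay at least 1 log2 below Pax6 for 26 of the 29 probes and for none of the 50 others, against 4.62% of all 26361 probes. The 29 had to be measured on slide 1 alone and the 50 on all 6 arrays. Among the 15 probes measured on both slides it lay that far below for 13, with a median of -1.50 beside 0.24 for their 24 other probes. Cops2, a subunit of the COP9 signalosome, shows it: the probe at chr2:125571445-125571504, measured on 1 of 3 slide 2 arrays, read -3.09 log2 between the slides and -4.52 between Esx1 and Pax6. The probe at chr2:125572803-125572862 gave 0.07 and 0.11. Taf9, a subunit of the general transcription factor TFIID, was not well above background on slide 2 at chr13:97745117-97745176, at least 4.54-fold lower, and gave 0.02 and 0.05 at its other probes. The other Taf9 probes were also far brighter, with slide 1 means of 3.48 and 3.79 against -4.32.

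Probes that lie side by side also parted. Pcbp1, an RNA-binding protein with KH domains, gave -2.01 at chr6:86599587-86599646 and -0.06 at chr6:86599646-86599705, on the minus strand of mm7. The Pcbp1 probe that met the rule was much the dimmer, with a slide 1 mean of 1.04 against 6.11. Rps21, a protein of the small ribosomal subunit, gave -1.32 at chr2:180759274-180759333. Its other probes gave 0.12 at chr2:180758913-180759144 and -0.51 at chr2:180759292-180759349. For Rps21 the lower of those other values moved in the same sense, although it did not meet the rule. It came from the probe that overlaps the one that met the rule. Slide 1 means were 3.86 at the Rps21 probe that met the rule, 4.02 at the overlapping probe and 7.15 at the remaining one.

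Genes of signalling pathways were among those with a split. Ptch1, the Hedgehog receptor and a target of that pathway, was at least 2.65-fold lower at 1 probe, with no slide 2 spot well above background, and gave -0.13 at the other. Smad3, a transcription factor of TGF-beta signalling, gave -1.45 and, at its other probes, 0.22 and 0.11. The Smad3 probe at -1.45 has no position on a chromosome, so where it reads in the gene is not known. Araf, a kinase upstream of MEK, was at least 1.86-fold lower at a probe with no slide 2 spot well above background and gave 0.07 at the other. The Araf probe that met the rule was far dimmer, with a slide 1 mean of -5.61 against 2.79. For Ptch1 these means were -5.10 and -5.48, and for Smad3 -1.44 against -4.89 and 0.13. In all 3 the probe that met the rule and the others of the gene read the same RNA samples on the same arrays. Which transcript forms each probe reads was not determined.

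**Figure D4:**
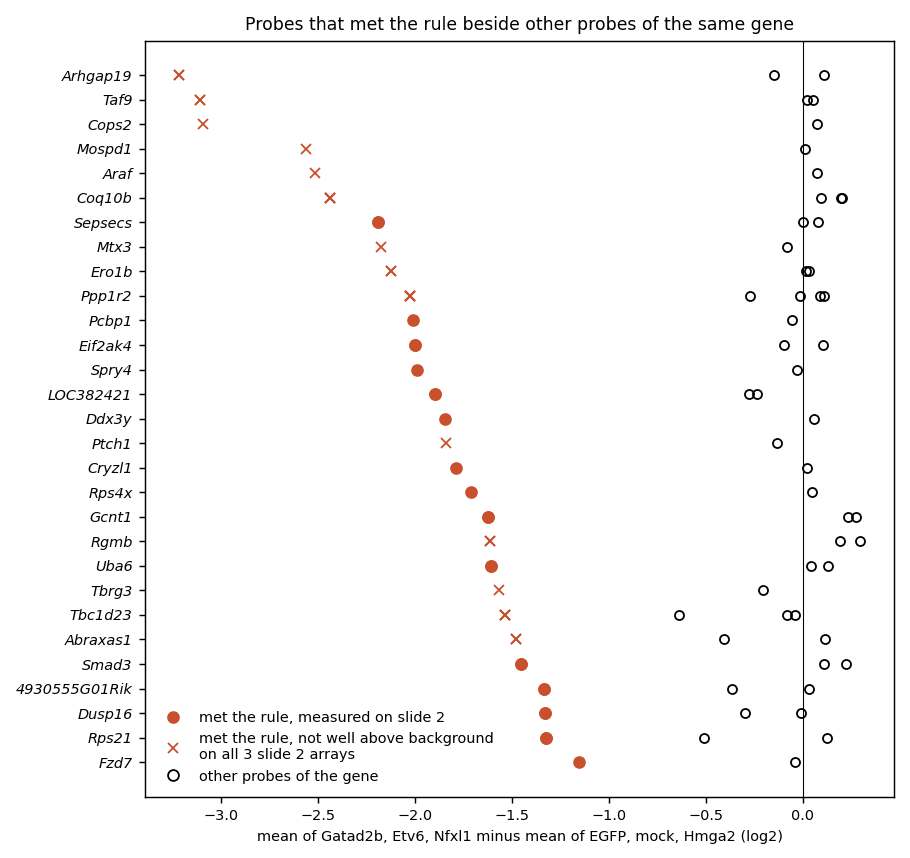
Difference between the slides (log2) for 29 probes that met the rule and for the 50 other probes of the same genes that were well above background on all 6 arrays (open). Filled points are the 15 probes measured on all 3 slide 2 arrays, between -2.19 and -1.16, crosses are probes whose slide 2 spots were not all well above background, and the open points lie between -0.64 and 0.30.

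In each of the lists of ERK feedback, nonsense-mediated decay, centrosome and peroxisomal oxidation genes, 1 member met the rule and was the marker itself, of 24, 24, 23 and 25 measured genes. Their medians were 0.09, 0.06, -0.06 and 0.03 log2, beside -0.01 for the 17549 genes measured on all 3 arrays of a side. In the remaining lists no gene met the rule in either direction at its brightest probe. As 0.464% of all genes were lower by it, these counts say little for lists this short. The 13 measured neural progenitor genes had a median of -0.01 and a range of -0.46 to 0.29, the 23 cell cycle genes a median of 0.02, and the 18 interferon response genes a median of -0.30. Esx1 minus Pax6 had a median of -0.78 over those interferon response genes and of -0.07 over the neural progenitor genes. At the brightest probe of each, the dim Y-linked gene Uty differed by -1.23 while the Y-linked genes Eif2s3y and Ddx3y differed by -0.20 and 0.06. Uty did not meet the rule. A dimmer Ddx3y probe did, at -1.84, with Esx1 minus Pax6 of -1.40.

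The threshold cuts through a continuous range. The last annotated genes inside it were Fzd7 and Wdr76, each with 1.04 log2 between the nearest arrays. The first outside it were St8sia5, a sialyltransferase, with 0.98, and Rnf144a, a ubiquitin ligase, with 0.91. St8sia5 read -3.73, -3.31 and -3.49 on slide 1 and -4.70, -4.91 and -4.99 on slide 2, and Esx1 minus Pax6 was -0.96. On the higher side no annotated measured gene met the rule, and the nearest were Igsf5 with 0.52 and the adenosine receptor Adora2b with 0.37.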

How the data were processed

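Total RNA from 12 cultures was labelled with Cy3 from 0.25 µg and read on 1-colour arrays. Per the file headers, the deposited intensities (gProcessedSignal) are background-subtracted spot signals from Agilent Feature Extraction 10.7.3.1, with no scaling between arrays, equal to the deposited value table at all 45018 spots compared per array, and positions refer to mm7. The deposited files also hold the software's flags. Control spots and outlier flags were dropped and spots of a probe averaged, leaving 41003 of 41174 probes with a value on every array. Levels are log2 signal minus the array's log2 75th percentile. Each of 27582 symbols took its probe with the highest mean. Probes were named through RefSeq (GRCm38.p6) by accession (22951), symbol (6659) or synonym (3109), and 8455 keep the file's name. Annotated members were named by widest gap, by Esx1 minus Pax6, by lists and by other probes; others were chosen after their values were seen. Members and 27 lists were chosen with earlier results of these data known. With 1 array a culture no test was possible, and the number of arrays limits the precision. Alternatives used limma 3.58.1 and R 4.3.3 for normexp, and Python 3.11.15 otherwise, quantile scaling included.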

Additional observations from a re-analysis of the deposited data

Results flagged for a closer look

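Genes were singled out here when they were lower on Gatad2b, Etv6 and Nfxl1 than on EGFP, mock and Hmga2 while Esx1 lay above Pax6. There were 4 among the 81, and the difference between the contrasts was not tested. AK086512, measured on 1 of the 3 slide 2 arrays, read -1.72 log2 between the slides and Esx1 minus Pax6 was 0.67. Actc1 differed by -1.37 and 0.61. Kcnj9, not well above background on slide 2, was at least 3.06-fold lower there, a bound raised by its bright mock array, and gave 0.08. The unannotated probe A_52_P1004960 was at least 5.01-fold lower on slide 2, where no spot was well above background, and gave 0.02, but neither Esx1 nor Pax6 was well above background for it. Its slide 1 levels were -3.51 on EGFP, -6.08 on mock and -2.94 on Hmga2, and Sox11 on slide 3 read -3.70.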

How the results depend on the processing

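The 81 lower, 1 higher and 70 repeated genes, with the 4 list members, became 55, 1, 49 and 4 with quantile normalization, and 80, 1, 70 and 4 with the median of spots well above background as the scale. With normexp they became 18, 0, 18 and 0, and all 18 were among the 81. A floor at the lowest signal well above background gave 64, 0, 58 and 4, of which 63 were among the 81. Averaging all probes of a gene gave 72, 0, 63 and 2. Keeping dim genes gave 112, 2, 86 and 4, and requiring all 12 arrays gave 45, 0, 41 and 1. A gap of 1.5 log2 gave 28, 0, 26 and 3, and a gap of 1.5-fold gave 217, 1, 150 and 5. Each probe on its own, chosen after seeing the data, gave 109, 1, 95 and 5, and keeping outlier spots changed none of these counts. Leaving out 1 array gave 98 to 135 lower, 1 to 7 higher and 79 to 114 repeated genes, and 4 to 6 list members. The 135, 7, 114 and 6 came without Nfxl1, and 124 lower genes came without mock. The repeat was 65 with Esx1 against slide 3 and 1 with Pax6 against slide 3. All 204 values of the 17 annotated genes under these alternatives stayed below 0, and 34 moved by more than the SD. With 1 array left out the sign was fixed in advance, since the rule set every slide 2 array below every slide 1 array for these genes. Keeping outlier spots left these values unchanged. Leaving out an array loosens the rule, so it can only keep or add genes, and all 81 were kept each time. The cause of the other changes was not tested, except that fewer genes enter a stricter filter. Where a slide 2 spot was not well above background only a bound is known. No paired analysis was possible because each culture has 1 array and the labels number no replicates across cultures.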
